A study of Cricetulus griseus with 8 samples.

Results

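The transcripts described here have very short listed lengths, read here as lengths of coding regions. They were measured in Chinese hamster ovary (CHO) cells, an established hamster cell line. The cells were wild-type or expressed a fusion of the RNA-binding protein RNG140. The transcripts were chosen by 2 values in the deposited tables: a listed length from 1 to 60 and a count of at least 20 in each of the 4 RNA libraries. The identifiers had to carry the Ensembl hamster transcript prefix, and the 37 lowest-numbered ones were left out. Of 34490 listed transcripts, 26985 had a length, 464 of the eligible ones were short enough, and 189 met the RNA minimum. No pair of the 189 held the same counts in all 8 libraries. Of the 275 that failed the minimum, 162 had no RNA count in any library and 113 had too few. The minimum was missed only in RNG140-GFP libraries by 7 transcripts and only in control libraries by 9, so transcripts nearly lost from 1 of the cell populations are not among the 189.

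The study compared CHO cells of wild-type genetic background, used as controls, with CHO cells that expressed RNG140 fused to green fluorescent protein (RNG140-GFP). Each population was measured by RNA sequencing and by ribosome profiling, with 2 libraries for each of the 4 groups. The labels give no promoter, clone or expression level for the fusion protein, and they do not say whether replicates came from separate cultures, so p-values measure only the spread between these libraries, which may be technical. The labels give no batch or date. RNA libraries held between 22849263 and 35875108 counts and footprint libraries between 4908885 and 16928311.

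Ribosome profiling sequences the RNA fragments that ribosomes protect from nuclease. The footprints on a transcript therefore count its ribosomes, and their ratio to its RNA is read as translation efficiency. Short coding regions usually encode small proteins, among them small ribosomal proteins and small subunits of respiratory complexes. Such regions hold few ribosomes at a time, so that initiation and termination make up a larger part of their translation. RNG140, also called caprin2, is a protein of cytoplasmic RNA granules that is known to repress translation. The tables pair no identifier with a gene, and the proteins encoded by the 189 transcripts are therefore not named here. Nor is it known how many of these short entries are complete coding regions.

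The unit of the listed length is not stated. It ranged from 6 to 60 among the 189 transcripts, with a median of 50, and 20 transcripts lay below 30, 20 from 30 to 39, 53 from 40 to 49 and 96 from 50 to 60. At the limit, 8 transcripts had a listed length of 60 and 9 further ones had 61. The median log2 change in the footprint to RNA ratio was 0.6 over the 7 tested transcripts of length 60, ranging from -0.34 to 1.43. For the 8 tested ones of length 61 it was 0.35, ranging from -0.23 to 0.72. At the RNA minimum, 5 transcripts had 20 as their lowest RNA count, with mean control levels from 0.635 to 1.28 CPM (counts relative to the scaled library size). A further 2 short transcripts had 19, with 0.545 and 0.622 CPM, and were left out.

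The 189 transcripts made up a small part of the RNA in both populations, while their part of the footprints was larger in RNG140-GFP cells. Their share came to 0.303% and 0.306% of the RNA counts of the control libraries and 0.301% and 0.284% of those of the RNG140-GFP libraries. Of the footprint counts they took 0.303% (exact binomial 95% interval 0.3% to 0.307%) and 0.311% (0.306% to 0.316%) in controls. The shares in the RNG140-GFP footprint libraries were 0.439% (0.435% to 0.443%) and 0.426% (0.423% to 0.429%). The intervals cover counting error only. Both RNG140-GFP footprint libraries thus lay above both controls, by more than the replicates differed. The 10 transcripts with the most footprints held 44.6% and 42.9% of the control footprints of the 189 and 35.4% and 34% of those in RNG140-GFP cells. Without these 10, the footprint share was 0.168% and 0.178% in control libraries, against 0.284% and 0.281% with RNG140-GFP. Without the 20 that gained the most, a choice that lowers the difference, it was 0.21% and 0.216% against 0.253% and 0.247%.

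**Figure D1:**
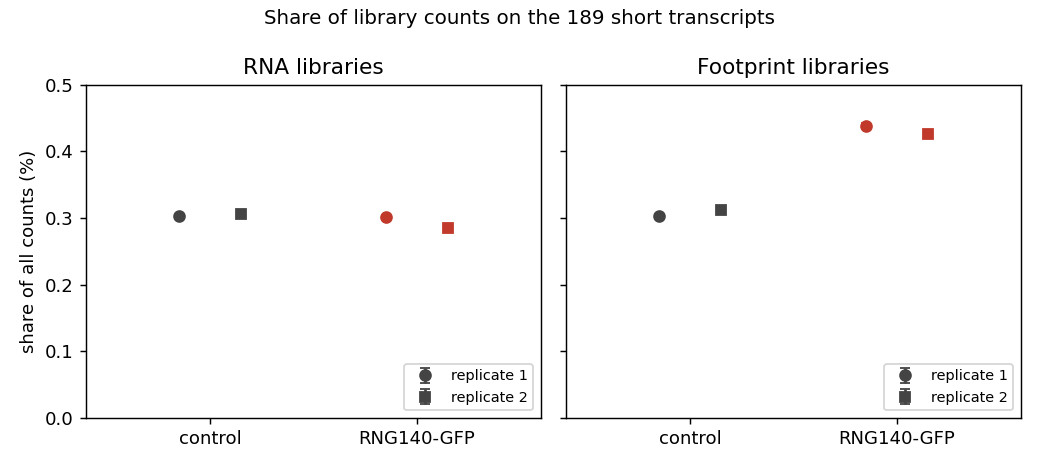
Share of all library counts on the 189 short transcripts, in percent, for each of the 4 RNA libraries (left) and the 4 footprint libraries (right); bars are exact binomial 95% intervals, which are smaller than the symbols. RNA shares lie between 0.284% and 0.306%, and footprint shares are near 0.3% in controls and above 0.42% in RNG140-GFP cells.

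RNA levels of these transcripts were low. The median RNA level over the 189 was 5.24 and 5.21 CPM in the control libraries and 5.12 and 5.37 CPM in the RNG140-GFP libraries, and single transcripts ranged from 0.509 to 165 CPM in the first control library. Longer transcripts with the same RNA minimum had median control levels of 9.05 CPM at listed lengths from 61 to 100, 15 CPM from there to 200 and 25.4 CPM above 200. Per unit of listed length the order was different: the median control RNA level was 0.11 CPM for the 189 transcripts, 0.112, 0.097 and 0.0447 CPM in the same 3 classes. These are descriptions of levels, and no test was made between classes.

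Among the 5 transcripts with the highest control RNA level per listed length, the first had a listed length of 15. Its RNA stood at 67 and 69 CPM in controls and 65.1 and 61 CPM in RNG140-GFP cells, and its footprints at 31.4 and 32.2 CPM in controls and 49.3 and 47.5 CPM in RNG140-GFP cells. The next, of listed length 16, appears below among the largest changes. The other 3 had a listed length of 42. The RNA of one of them fell from 165 and 161 CPM to 114 and 92.9 CPM, while its footprint levels overlapped between the populations, at 231 and 277 CPM in controls and 284 and 262 CPM in RNG140-GFP cells. Its ratio rose by 0.76 ± 0.11 (SE; edgeR adjusted p = 1.81e-05), from 1.4 and 1.73 to 2.48 and 2.82. The remaining 2 were near copies in their counts, with 6053 and 6048 RNA counts in the first control library, and their ratios were not called, at changes of 0.16 ± 0.12 and 0.14 ± 0.12 (SE). With a tolerance of 5% or 2 counts in every library, 4 of the 189 transcripts had such a partner: this pair, a transcript of listed length 59 that matched one of length 91, and a transcript of length 43 with few counts that matched one of length 723. How reads that fit more than one transcript were counted is not stated, so the values of these 4 are uncertain, and partial overlap with longer transcripts cannot be seen from the tables.

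The footprint to RNA ratio is the footprint CPM divided by the RNA CPM of the library with the same group and replicate number. It spanned a wide range among the short transcripts. In control cells its median over the 189 was 0.8 and 0.769 (replicates 1 and 2), with 10th percentiles of 0.149 and 0.126 and 90th percentiles of 2.95 and 3.15. In RNG140-GFP cells the median was 1.01 and 0.928, and the 90th percentile 4.45 and 4.44. A ratio above 1 was found for 76 and 72 transcripts in the control libraries, and for 98 and 90 after RNG140-GFP expression. Both RNG140-GFP medians lay above both control medians. Footprint and RNA libraries were prepared by different protocols, and the part of this in the level of a ratio was not tested.

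The shortest entries had the lowest median ratios. In control cells the median log2 ratio was -1.19 and -0.95 over the 20 transcripts with listed lengths below 30, -0.33 and -0.65 for those from 30 to 39, -0.25 and -0.3 from 40 to 49, and -0.31 and -0.3 from 50 to 60. Transcripts of length 61 to 100 stood at 0.06 and 0.08 and those above 100 and up to 200 at 0.18 and 0.16, while those above 200 were again lower, at -0.17 and -0.16. The first 2 of these classes hold only 20 transcripts each, and across the 185 transcripts with control footprints Spearman's rho between listed length and ratio was 0.06, as a description. The differences between classes were not tested.

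Some short transcripts carried next to no footprints. With the counts of both replicates joined, the measured control ratio was under 0.1 for 14 of the 189 (7.41%). Of these, 4 had no control footprint count, so that their true ratio may lie above 0.1. At longer lengths the measured ratio was under 0.1 for 12 of 623 (1.93%) from 61 to 100, for 29 of 2309 (1.26%) above 100 and up to 200 and for 161 of 12653 (1.27%) above 200. The median control footprint counts in these 4 classes were 51, 127, 188 and 243, and the part of this depth in the shares was not tested. Of these 14, 5 were among the 20 transcripts with lengths below 30. All 14 had between 51 and 928 RNA counts and at most 8 footprint counts in the 2 control libraries together, and their ratio in RNG140-GFP cells reached at most 0.232. The one with the lowest ratio above 0 had a listed length of 15. Its control RNA counts were 320 and 295 but its control footprint counts 1 and 0. The RNG140-GFP libraries gave it 307 and 213 RNA counts with 5 and 1 footprint counts. It has the same listed length as the abundant transcript above, whose control ratio was 0.468 and 0.467. Of the 14, 3 with listed lengths of 6, 33 and 51 had no footprint count in any of the 4 footprint libraries. The most that 0 counts allow, taken as 3 counts over the group, gives control ratios of up to 0.286, 0.332 and 0.132 and RNG140-GFP ratios of up to 0.0829, 0.131 and 0.084. Lower levels of translation were not detectable at this depth.

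At the other end, 12 of the 189 (6.35%) had a control ratio over 4, compared with 43 (6.9%) at lengths from 61 to 100, 177 (7.67%) above 100 and up to 200 and 282 (2.23%) above 200. The highest belonged to a transcript of listed length 42, with 124 and 169 footprint CPM on 4.25 and 5.62 RNA CPM in controls, a ratio of 29.1 and 30.1. It was followed by transcripts of lengths 57, 49, 43 and 47, with control ratios from joined counts of 21.2, 14.5, 10.4 and 9.95. In RNG140-GFP cells the same 5 had ratios of 18.8, 42.2, 18, 14.6 and 29.7. Changes in the ratio are given below.

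**Figure D2:**
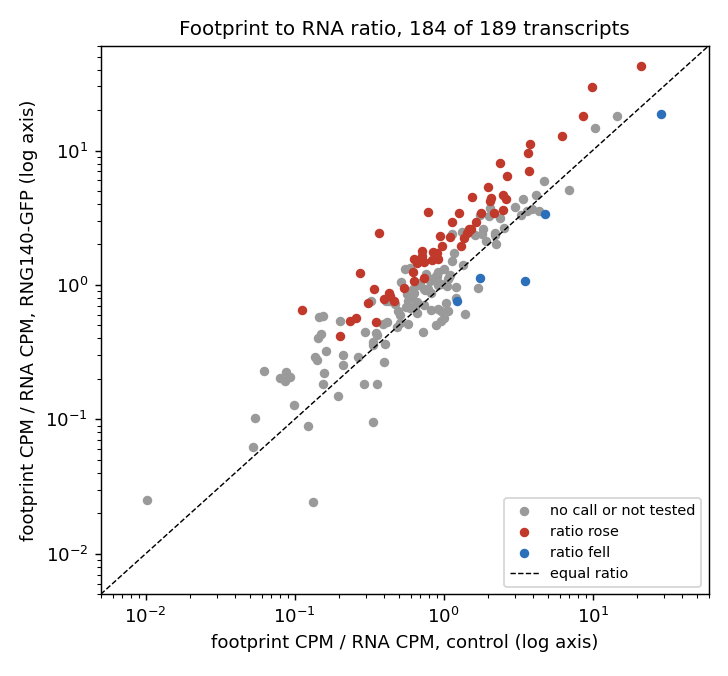
Footprint CPM divided by RNA CPM in control cells (horizontal, log axis) and in RNG140-GFP cells (vertical, log axis), from the joined counts of 2 replicates, for the 184 transcripts with footprints in both populations. Control ratios reach from 0.01 to 28.6, most points lie above the dashed line of equal ratios, and the 5 decreases lie at control ratios above 1.

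Changes between the populations were tested across all transcripts together. Each library was scaled to its own counts, so a change in RNA or translation common to all transcripts was not measured. A rise or fall is therefore relative to the other transcripts, and absolute changes in translation were not tested. A transcript entered the test if it passed a filter on low counts in the RNA and in the footprint libraries, which 15577 transcripts did, and a change was called at an adjusted p under 0.05. Of the 189 short transcripts, 150 passed. The 39 that failed had between 0 and 36 footprint counts in the 4 footprint libraries together. Since the filter can be passed through the group with the higher level alone, 18 of the 150 reached its footprint level in both RNG140-GFP libraries but not in both controls, which favours rises among them. Counts of calls are therefore given also for the 130 that reached it in both control libraries and, for plain rises and falls, for a fit without the filter, in which all 189 were tested.

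RNA levels changed in both directions, and about equally often. Of the 150 tested transcripts, 30 rose and 32 fell in RNA (41.3%; edgeR quasi-likelihood test, adjusted p under 0.05), whereas 61.3% of all tested transcripts were called in RNA, 31% rising and 30.3% falling. Both RNG140-GFP levels lay above both control levels for 49 (32.7%) and below them for 55 (36.7%), compared with 40.5% and 39.9% of all. Their median log2 change was -0.05, compared with 0.01 for all tested transcripts, and the median standard error was 0.135 against 0.0857. Among the 130, 27 rose (20.8%) and 30 fell (23.1%), and 42 (32.3%) and 50 (38.5%) did not overlap. No share in RNA was formed for all transcripts held to the same condition. In the fit without the filter 37 rose and 37 fell of 189, where 24.6% of all transcripts rose and 23% fell. DESeq2 called 15 rising and 24 falling in RNA among the 150, and 50.3% of all. No called RNA rise among the 150 passed 2-fold and 2 called falls did, while 2.16% and 2.44% of all tested transcripts with the same RNA minimum rose and fell by as much. The RNA minimum is part of the rule, and nothing is read from these counts.

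The largest RNA increase was that of a transcript of listed length 42, from 2.11 and 2.05 CPM in controls to 3.97 and 3.55 CPM, a log2 change of 0.86 ± 0.18 (SE; edgeR adjusted p = 0.000186). Its footprints rose alongside, from 1.73 and 1.45 to 4.01 and 3.2 CPM, and its ratio was not called. A transcript of length 28 also rose in both, with RNA of 3.13 and 3.81 CPM in controls and 6.11 and 6.12 CPM in RNG140-GFP cells and footprints of 16.3 and 16.5 CPM that became 36.3 and 36.1 CPM. The largest RNA decrease was in a transcript of listed length 55, from 6.59 and 4.45 CPM to 2.11 and 1.25 CPM, or -1.69 ± 0.24 (SE; edgeR adjusted p = 2.39e-07). Its footprints overlapped between the groups, at 17.7 and 26.4 CPM in controls and 14.2 and 18.1 CPM in RNG140-GFP cells, and its ratio rose by 1.32 ± 0.31 (SE; edgeR adjusted p = 0.00182). The other decrease beyond 2-fold, in the transcript of length 59 whose counts nearly match those of one of length 91, went from 44.2 and 38.2 to 19.9 and 17.4 CPM. Its footprints fell from 85.7 and 101 CPM to 57 and 68.8 CPM, and its ratio rose by 0.6 ± 0.14 (SE; edgeR adjusted p = 0.00171).

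Footprints mostly rose. Of the 150 tested transcripts, 74 rose (49.3%) and 11 fell (7.33%) in footprints (edgeR, adjusted p under 0.05), whereas 25.9% of all tested transcripts rose and 26.4% fell, 52.3% in all. Footprint rises of more than 2-fold were called for 38 (25.3%) and falls for 2, compared with 5% and 3.7% of all. The median log2 change was 0.53, a 1.44-fold rise, compared with 0.02 for all tested transcripts. Among the 130 that did not depend on the RNG140-GFP libraries to be tested, 66 rose (50.8%) and 11 fell (8.46%), with a median of 0.48, compared with 25.5% and 27.4% of all transcripts held to the same condition. Rises of more than 2-fold numbered 30 of the 130 (23.1%), compared with 3.82%. Without the filter 76 of 189 rose and 15 fell, with a median of 0.52, where 19.5% of all rose and 19.6% fell. By replicate number the median change was 0.52 and 0.5. Both RNG140-GFP values lay above both control values for 97 of the 150 (64.7%), and this was so for 38.8% of all tested transcripts. They lay below for 21 (14%), compared with 36.2% of all. Among the 130 these counts were 82 (63.1%) and 21 (16.2%), with no such share formed for all transcripts held to the same condition.

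**Figure D3:**
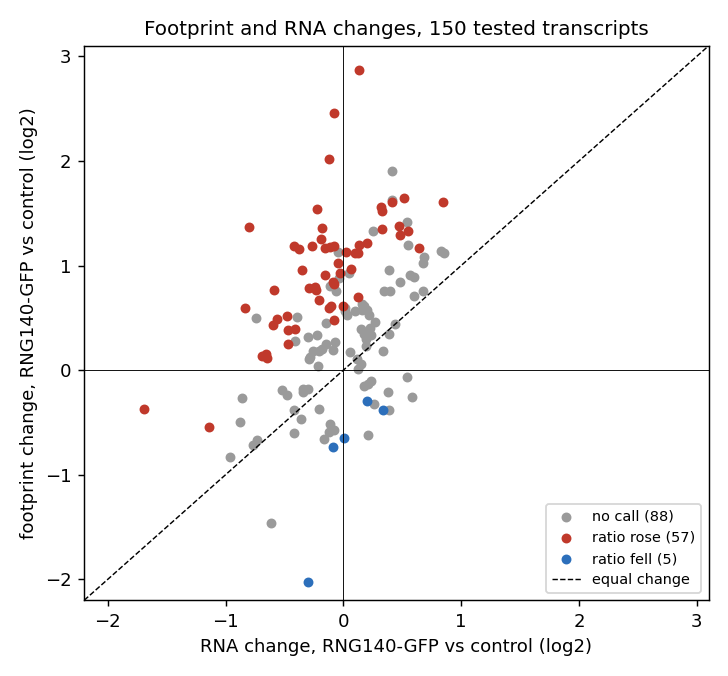
Log2 change in RNA (horizontal) and in footprints (vertical) between RNG140-GFP and control cells for the 150 tested short transcripts, coloured by whether the footprint to RNA ratio rose (57), fell (5) or was not called (88). Points spread about evenly to both sides of 0 in RNA, while 115 of the 150 lie above 0 in footprints. Of the 150, 18 reached the filter's footprint level in both RNG140-GFP libraries but not in both controls, which favours rises. The median footprint change was 0.53 over the 150 and 0.48 over the 130 that reached it in both controls. For all tested transcripts it was 0.02.

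Relative to the other transcripts, the footprint to RNA ratio rose for many of the short transcripts and fell for few. Of the 150, 57 rose (38%) and 5 fell (3.33%; edgeR, interaction contrast, adjusted p under 0.05), whereas 11.2% of all tested transcripts rose and 12% fell, 23.2% in all. The median log2 change was 0.55, a 1.47-fold rise, compared with 0.01 for all tested transcripts, with quartiles of 0.12 and 0.99. Among the 130, 54 rose (41.5%) and 5 fell (3.85%), with a median of 0.5, compared with 11.4% and 12.4% of all transcripts held to the same condition. Without the filter 62 of 189 rose and 5 fell, with a median of 0.52, where 8.31% of all transcripts rose and 9.17% fell. DESeq2 gave an adjusted p for 57 of the 62 calls and called 45 of them, 44 rising and 1 falling, and 19.1% of all transcripts with an adjusted p. Rises of more than 2-fold were called for 32 of the 150 (21.3%), compared with 1.43% of all tested transcripts, and for 29 of the 130 (22.3%), compared with 1.25%. A single transcript fell by as much, and 0.526% of all did. Both RNG140-GFP ratios lay above both control ratios for 94 of the 150 (62.7%), compared with 31.1% of all, and below them for 16 (10.7%), compared with 30.2%. Among the 130 these counts were 82 (63.1%) and 16 (12.3%), with no such share formed for all transcripts held to the same condition. Of the 12 transcripts with a control ratio over 4, 4 rose and 2 fell. A choice by a high control value favours falls, and no share was formed for all transcripts with such ratios. Nothing is read from these 12. The median standard error of the change was 0.254, larger than the 0.159 of all tested transcripts. Of the 88 without a call, 66 changed upward in their fitted value, with a median of 0.29. These 88 include transcripts that reached the filter's footprint level in both RNG140-GFP libraries but not in both controls. That favours upward values and low control counts, and nothing is read from the 66. The 88 had a median of 48.5 footprint counts in the 2 control libraries together, against 150 for the 57 that rose.

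Of the 57 transcripts whose ratio rose, 49 rose in footprints, 7 had no footprint call and 1 fell in footprints. In RNA 30 of the 57 had no call, 18 fell and 9 rose. The median changes over these 57 were 1.03 in footprints and -0.12 in RNA. Of the 54 rises among the 130, 46 rose and 1 fell in footprints, and 8 rose and 18 fell in RNA. Of the 5 whose ratio fell, 4 fell in footprints, and 1 rose in RNA without a footprint call. The RNA libraries enter the RNA change and the ratio with opposite sign, and the footprint libraries enter the footprint change and the ratio with the same sign. The changes of a transcript are thus not independent. A choice by a rise in the ratio favours rises in footprints and falls in RNA. No such split was formed for all tested transcripts, and nothing is read from these counts.

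The largest rise in the ratio was that of ENSCGRT00000015234, of listed length 33. Its RNA counts were 405 and 344 (controls) and 423 and 240 (RNG140-GFP), and its footprint counts 26 and 18 (controls) and 297 and 447 (RNG140-GFP). Its RNA level overlapped between the groups, at 10.3 and 10.1 CPM in controls and 13.1 and 9.07 CPM, while its footprints went from 3.46 and 4.36 CPM to 26.4 and 28.6 CPM. The ratio went from 0.335 and 0.432 to 2.01 and 3.15, a log2 change of 2.73 ± 0.3 (SE; edgeR adjusted p = 3.08e-08). The second largest, in ENSCGRT00000017627 of listed length 47, rested on 2 and 3 footprint counts in controls, which became 32 in each RNG140-GFP library, with 147 and 134 RNA counts against 128 and 85. Its ratio rose by 2.54 ± 0.71 (SE; edgeR adjusted p = 0.00201), but over 14 other fits the adjusted p ranged from 0.000205 to 0.104, and the call was lost without the first control footprint library, with a change of 1.8 to 3.23 over these fits. DESeq2 gave no adjusted p for it. Its control footprint levels of 0.266 and 0.726 CPM lay under the filter's 0.943 CPM, so it was tested only through the RNG140-GFP libraries, where it was high, and its place and p are no support for a rise.

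The third, of listed length 16, was far more abundant. Its RNA fell from 67.5 and 58.2 CPM in controls to 36.4 and 35.7 CPM, while its footprints rose from 50.6 and 48.2 CPM to 145 and 112 CPM. Neither pair of values overlapped. The ratio went from 0.75 and 0.828 to 3.98 and 3.15, a log2 change of 2.17 ± 0.14 (SE; edgeR adjusted p = 2.07e-11). The fourth, of listed length 52, rested on few footprints, 3 and 2 counts in the control libraries against 24 and 23, and it too was tested only through the RNG140-GFP libraries. Its ratio rose by 2.14 ± 0.78 (SE; edgeR adjusted p = 0.0221). Over 13 other fits the adjusted p ranged from 0.00904 to 0.188, and the call was lost without control footprint replicate 1 or 2, RNG140-GFP footprint replicate 1, control RNA replicate 1 or RNG140-GFP RNA replicate 1.

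The next 4 rises had higher ratios from the start. A transcript of listed length 54 went from ratios of 2.31 and 2.59 to 6.52 and 13.1, on footprints of 4.52 and 5.08 CPM in controls and 14.8 and 12.9 CPM in RNG140-GFP cells. Its log2 change was 1.77, but 2.52 without RNG140-GFP RNA replicate 1 and 1.31 without replicate 2. One of length 47 went from 11.4 and 7.75 to 36.6 and 24.4, and its footprints from 24.5 and 18.2 CPM to 54.6 and 46 CPM. One of length 50 went from 1.35 and 1.89 to 5.18 and 4.08. Another of length 47 went from 4.41 and 3.28 to 12.2 and 9.75. The log2 changes of these 4 lay between 1.53 ± 0.36 and 1.77 ± 0.37 (SE), with edgeR adjusted p between 2.84e-05 and 0.00265. In all 4 the RNA was not called as changed, and both RNG140-GFP ratios exceeded both control ratios. The abundant transcript of length 15 rose less, by 0.72 ± 0.12 (SE; edgeR adjusted p = 4.19e-05), with ratios that went from 0.468 and 0.467 to 0.757 and 0.779.

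Of the 5 decreases, that of ENSCGRT00000025124, with a listed length of 59, had the greatest size. It had 33 and 25 footprint counts in controls and 15 and 18 in the deeper RNG140-GFP libraries, or 4.39 and 6.05 CPM against 1.34 and 1.15 CPM, and its RNA counts were 65 and 39 in the control libraries and 30 and 37 in the RNG140-GFP libraries. Its ratio fell from 2.65 and 5.3 to 1.43 and 0.823, a log2 change of -1.72 ± 0.45 (SE; edgeR adjusted p = 0.00571), called in all 14 other fits that gave it an adjusted p. With thinned footprint libraries its log2 change was -2.44. That of ENSCGRT00000004658, of listed length 48, fell from 1.18 and 1.34 to 0.827 and 0.682, a log2 change of -0.71 ± 0.26 (SE; edgeR adjusted p = 0.0449), and was lost in 8 of 16 other fits. The transcript of length 42 with the highest control ratio fell from 29.1 and 30.1 to 17.1 and 19.5, a log2 change of -0.66 ± 0.21 (SE; edgeR adjusted p = 0.0243), and was lost in 5 of 16. The decrease with the most counts was in an abundant transcript of length 50. Its RNA stood at 141 and 141 CPM in controls and 127 and 139 CPM in RNG140-GFP cells, and its footprints fell from 232 and 272 CPM to 154 and 146 CPM. This ratio changed by -0.65 ± 0.1 (SE; edgeR adjusted p = 1.86e-05) and was called in all 16 other fits. The last, of length 48, went from 5.48 and 4.04 to 3.71 and 3.06, at -0.49 ± 0.17 (SE; edgeR adjusted p = 0.0344), and was lost in 7 of 16. Each of the 3 decreases with lost calls was lost in DESeq2, without RNG140-GFP footprint replicate 1, without control RNA replicate 1 and without RNG140-GFP RNA replicate 2. Both decreases of length 48 were also lost without control footprint replicate 1, without RNG140-GFP footprint replicate 2 and with thinned footprint libraries. The first of them and that of length 42 were lost without control footprint replicate 2.

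**Figure D4:**
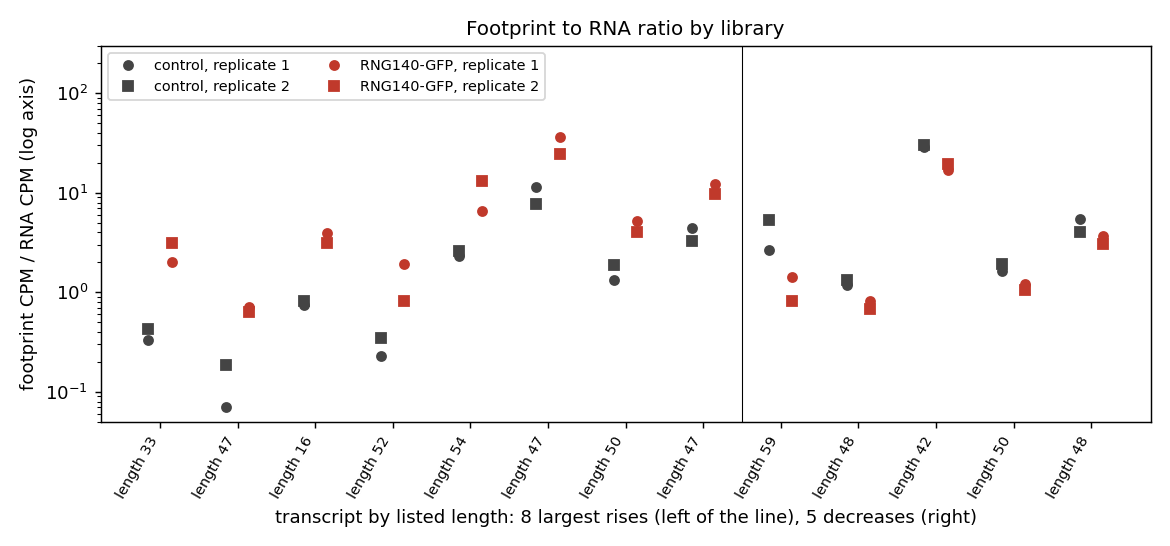
Footprint CPM divided by RNA CPM (log axis) in each library pair for the 8 transcripts with the largest called rise and the 5 with a called decrease, marked by listed length; circles are replicate 1, squares replicate 2. Control and RNG140-GFP values do not overlap in any of the 13, which the choice of these transcripts required.

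Within the short transcripts the change did not follow the listed length. Across the 150, Spearman's rho between length and the change in the ratio was 0.03, given as a description over transcripts that share the same 8 libraries. The median change was 0.72 over the 11 tested transcripts with lengths below 30, 0.39 over the 13 from 30 to 39, 0.36 over the 46 from 40 to 49 and 0.6 over the 80 from 50 to 60. Rises numbered 5, 4, 14 and 34 in these classes (45.5%, 30.8%, 30.4% and 42.5%), compared with 11.2% of all tested transcripts. The decreases were 3 from 40 to 49 (6.52%) and 2 from 50 to 60 (2.5%), compared with 12% of all. Among the 130, rises numbered 5 of 10, 4 of 12, 13 of 39 and 32 of 69. Of all transcripts held to the same condition, 11.4% rose. The 57 rising transcripts had a median length of 52 and the 88 without a call 49.5.

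The rise was shared with transcripts just beyond the limit. At listed lengths from 61 to 80, 100 of 240 rose (41.7%) and 8 fell, with a median of 0.45. Above that and up to 100, 136 of 344 rose (39.5%) and 11 fell, with a median of 0.42. The share that rose dropped to 25.3% of 2222 transcripts above 100 and up to 200, with a median of 0.23, and to 7.1% of 12273 above 200, where 14% fell and the median was -0.03. The 38% among the 150 thus lay near that of the next 2 classes, in which the standard errors were smaller. Over transcripts that reached the footprint level in both control libraries, 41.5% of 130 and 42.1% of the 544 from 61 to 100 rose. No test between classes was made. The starting levels were lower among the short transcripts: their median control log2 ratio was -0.32 and -0.38, below the 0.06 and 0.08 at lengths from 61 to 100, and in RNG140-GFP cells it was 0.01 and -0.11, below 0.53 and 0.58.

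**Figure D5:**
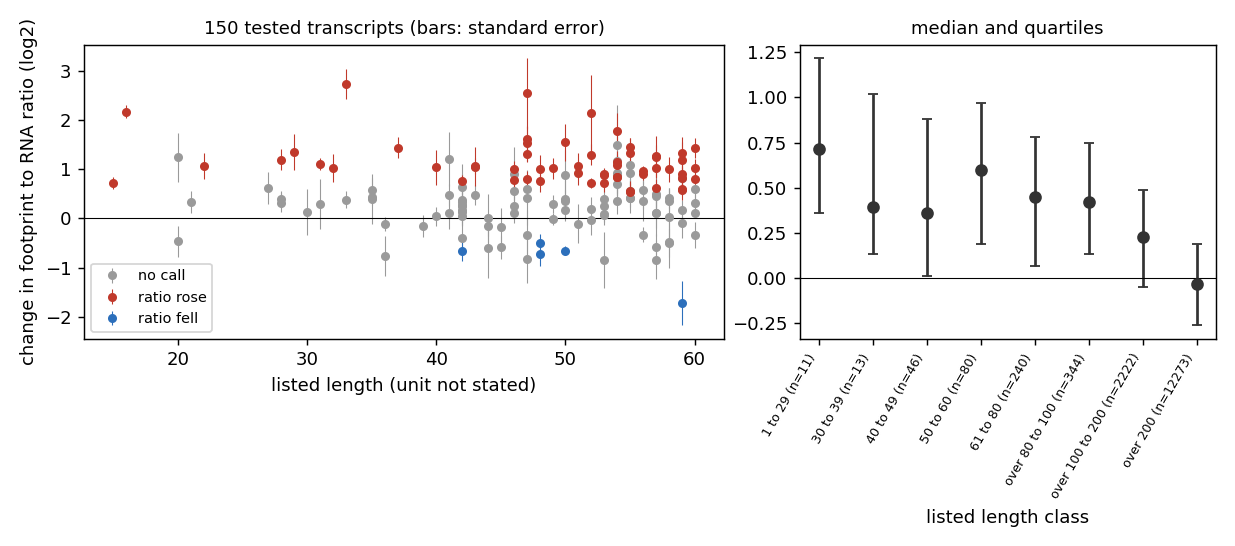
Left: log2 change in the footprint to RNA ratio against listed length for the 150 tested short transcripts, with standard errors. Right: median change by length class, bars marking the quartiles; medians lie between 0.36 and 0.72 up to a length of 60, near 0.4 up to 100 and at -0.03 above 200.

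The change was also set beside the control level, each taken from a different replicate number to keep the 2 values free of a common control library (0.5 counts were added to each count). With the level from replicate 1, the median change was 0.27 in the 63 transcripts with the lowest control ratios, 0.48 in the middle 63 and 0.46 in the highest 63. With the level from replicate 2 it was 0.53, 0.52 and 0.59. The order of the classes differed between the replicates. Over all 189 transcripts, the median change in the ratio formed this way was 0.56 in replicate 1 and 0.44 in replicate 2.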

How the data were processed

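Ribosome footprints and RNA were each measured in 2 control and 2 RNG140-GFP libraries; groups and replicate numbers came from the sample titles. Per the labels, ribosomes were pelleted after RNase I treatment and rRNA was depleted, whereas the RNA libraries used a stranded mRNA kit. The authors deposited whole-number counts per transcript without normalization, next to a length with no stated unit. Per the submitters' processing notes the tools included TopHat2 2.0.9, Bowtie2 2.1.0 and CASAVA 1.8; the build, annotation and counting method were not given in the sources used here. The reference gene table held 0 of the identifiers, so symbols and the gene lists planned for small proteins could not be used.

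Counts were fitted in edgeR 4.0.16 (R 4.3.3; quasi-likelihood, TMM scaling) for all 8 libraries as 4 group means (4 residual degrees of freedom), after edgeR's expression filter (minimum count 10) within each assay. P-values were adjusted by Benjamini-Hochberg over 15577 transcripts. Standard errors are Wald errors, not below counting error. The fit was tested on simulated data, in which all transcripts shared a common spread, which the fit itself does not assume. Ratio changes of 1.5-fold and 2-fold were called for 38.2% and 60.6% of short transcripts, against 64.7% and 84.9% of others. At 4-fold 97% were called in both, and 0.026% of unchanged transcripts were called. Named transcripts were the 8 largest called changes per direction in the ratio and the 4 largest in RNA and in footprints, without overlap between the groups, the 5 highest in control RNA per length, the 5 highest and 5 lowest in control ratio, and the 3 shortest; the largest are described. Identifiers are printed for 2 rises and 2 decreases. The members, lists and rules were chosen with earlier results of these data known. Alternatives were other scaling (RLE), DESeq2 1.42.0, other filters, thinned footprints, omitted libraries, replicate blocks and other limits of the rule.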

Additional observations from a re-analysis of the deposited data

How the results depend on the processing

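The median changes in the ratio and in footprints stayed above 0 in all 43 recomputed values. No call shared by the reported and another fit changed direction. Of the 62 calls in the ratio, 45 to 62 were kept in each of 16 other fits. The reported medians were 0.55 for the ratio, 0.53 for footprints and -0.05 for RNA. DESeq2 called 45 in the ratio (44 rising, 1 falling), 39 in RNA (15 rising) and 6 of the 9 named transcripts to which it gave an adjusted p. With other limits of the rule the counts follow from how many transcripts it takes. At lengths of 1 to 40 (26 tested), calls were 10 in the ratio (10 rising, 0 falling), 16 in footprints (15 and 1) and 11 in RNA (6 and 5), against 23.2%, 52.3% and 61.3% of all tested transcripts, with medians of 0.61 in footprints and -0.77 for the control log2 ratio. At lengths of 1 to 80 (390 tested), they were 170 (157 and 13), 222 (191 and 31) and 193 (95 and 98), against the same shares of all. The medians there were 0.467, 0.493 and 0.0115, with log2 ratios of -0.14 in controls and 0.38 in RNG140-GFP cells. An RNA minimum of 50 gave an RNA median of 0.0159 and log2 ratios of -0.29 and 0.15. The median footprint change was 0.51 with RLE size factors, 0.52 without a filter, 0.63 at a minimum count of 50 (6 falling), 0.64 with thinned footprints, 0.54 with a replicate block and 0.48 for transcripts over the filter in both control libraries; its replicate spread was only 0.009. RLE gave a control log2 ratio of -0.29, and thinning gave -0.397 in controls and 0.0559 in RNG140-GFP cells. The causes of these shifts were not tested. Leaving out 1 library at a time gave ratio medians of 0.48 to 0.66 and footprint medians of 0.504 to 0.646. RNA medians were -0.0495 to 0.0127 (above 0 without control RNA replicate 1 or RNG140-GFP RNA replicate 2), with 2 to 7 falling ratios. The count of falling ratios, 5 in the reported fit, was 2 without control RNA replicate 1 or RNG140-GFP RNA replicate 2. It was 3 without control footprint replicate 2 or either RNG140-GFP footprint library. Without RNG140-GFP footprint replicate 1, these 3 were not all among the 5 reported decreases. Such fits assume that a group's lone library varies as the other groups do. A replicate block called 69 in the ratio (63 rising, 6 falling), as did a block by culture, and 65 in RNA and 88 in footprints. The shares of all transcripts called in the block fits were not formed, and nothing is read from these counts. The deviations of same-numbered libraries correlated at 0.128 in RNA and 0.00657 in footprints, and pairing by number is stated in no label. Counting the near-identical pair once and the restriction to control libraries were chosen after seeing the data; the former moved no count by more than 1. Footprint depth limits these transcripts: 39 of 189 could not be tested.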
